A study of Mus musculus with 25 samples.

Results

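The lysosome was followed through 36 genes that encode its hydrolases, their activators, its membrane proteins, the subunits of its proton pump and 2 transcription factors, Tfeb and Mitf. The genes were taken by symbol from a list that was chosen with earlier results of these data known. Their counts are therefore set beside those of all genes as a description. Of the 36, 34 were measured by a transcript cluster that carried their symbol alone, among 22180 genes measured in that way. Glb1 shares its cluster with Tmppe and Atp6v0c was not matched to a cluster, so both were not analysed here. Where a gene had several clusters, as Smpd1, Npc1 and Atp6v1b2 did, the cluster with the highest mean stood for it.

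Gonadal white adipose tissue was taken from male mice, all heterozygous for the apoE3L.CETP genotype, which combines the ApoE3Leiden and human CETP transgenes, so that the mice on the low-fat and chow diets carry these transgenes as well. The 4HFD, 8HFD and 12HFD groups (3, 4 and 4 arrays) ate a high-fat diet of 60% fat, 20% carbohydrate and 20% protein with 0.25% cholesterol for 4, 8 or 12 weeks. The 4LFD, 8LFD and 12LFD groups (4 arrays each) ate a low-fat diet of 10% fat, 70% carbohydrate and 20% protein for the same times. A chow group (2 arrays) was sampled at the start of the diets, at the age of 12 weeks. The labels give an age of 16 weeks for the 4-week groups, 20 weeks for the 8-week groups and 34 weeks for the 12-week groups. The last is more than 12 weeks of diet begun at 12 weeks of age would give, so time on diet is used here. Which promoters drive the transgenes is not given in the labels. Each array was labelled as a biological replicate, and expression is given as deposited log2 array values.

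Lysosomes break down proteins, glycans and lipids that arrive by endocytosis, phagocytosis and autophagy. Their enzymes work in an acid interior, which is kept acid by the vacuolar ATPase, a rotary pump in which the cytosolic V1 sector splits ATP and the membrane V0 sector moves protons. TFEB and MITF are related transcription factors that bind E-box sites in the promoters of many lysosome genes. In obese fat, macrophages that surround dying adipocytes take up their lipid and degrade it in lysosomes.

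The arrays had medians of 5.04 to 5.36 and correlated pairwise at 0.909 to 0.992 across genes. The tissue's own markers were present: the mean of 13 measured adipocyte markers was 10.6 in chow array 1 and between 11.4 and 11.9 in the other arrays. Markers of hepatocytes had an array mean of 8.95 or more in 11 of the 16 arrays of 8 and 12 weeks and of 7.24 or less in the remaining 14 arrays of the series. The mean of the epididymis markers was 9.28 in 4HFD array 1, 5.09 in 4LFD array 1 and 11.2 in chow array 1, and it was 4.07 or lower in every other array. Results that depend on these arrays are given with and without them.

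The high-fat diet was accompanied by higher levels of some lysosomal genes, and the number that passed the test was 0 at 4 weeks, 3 at 8 weeks and 8 at 12 weeks. At 12 weeks Ctss, Lipa, Gusb, Atp6v1b2, Man2b1, Ctsz, Psap and Hexa rose, by 0.54 to 1.74 on the log2 scale, and none of the 34 fell. A gene was called at a Benjamini-Hochberg adjusted p under 0.05 over all genes in limma's moderated test. Of all genes, 0.212% were called at 4 weeks, 2.4% at 8 weeks (1.17% as higher) and 4.46% at 12 weeks (3.13% as higher). At an unadjusted p under 0.05 the counts at 4, 8 and 12 weeks were 6, 11 and 17 of the 34, against 9.33%, 13.7% and 16.1% of all genes. Averaged over the 3 times, 13 of the 34 rose and Ctsc fell, while 10.5% of all genes were called, 6.03% as higher and 4.44% as lower. Without the 3 arrays that carry epididymis markers, 0, 9 and 12 of the 34 were called at 4, 8 and 12 weeks, against 0.298%, 5.64% and 8.41% of all genes. The 12-week calls then included Ctsb, Ctsh and Atp6v0a1 as higher and Ctsc as lower. Among the 4290 genes with a mean level of at least 8, a level that 32 of the 34 reached, 5.48% rose at 12 weeks and 12.3% rose on average over the 3 times.

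The median difference between HFD and LFD over the 34 genes was 0.18 at 4 weeks, 0.16 at 8 weeks and 0.27 at 12 weeks, while the median over all genes was between -0.01 and 0.00. The difference was above 0 at all 3 times for 23 of the 34, against 19% of all genes, and below 0 at all 3 times for 1, Ctsc, against 20.3% of all genes. All HFD arrays lay above all LFD arrays for 3, 11 and 14 of the 34 at 4, 8 and 12 weeks, against 4.68%, 5.01% and 7.52% of all genes. They lay below for 2 genes at 4 weeks (Ctsc and Tfeb), 2 at 8 weeks (Ctsc and Mcoln1) and 1 at 12 weeks (Ctsc), against 4.41%, 6.42% and 5.08% of all genes. In bulk tissue, a change in the number of cells of a type and a change in the RNA of each cell cannot be told apart.

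**Figure D1:**
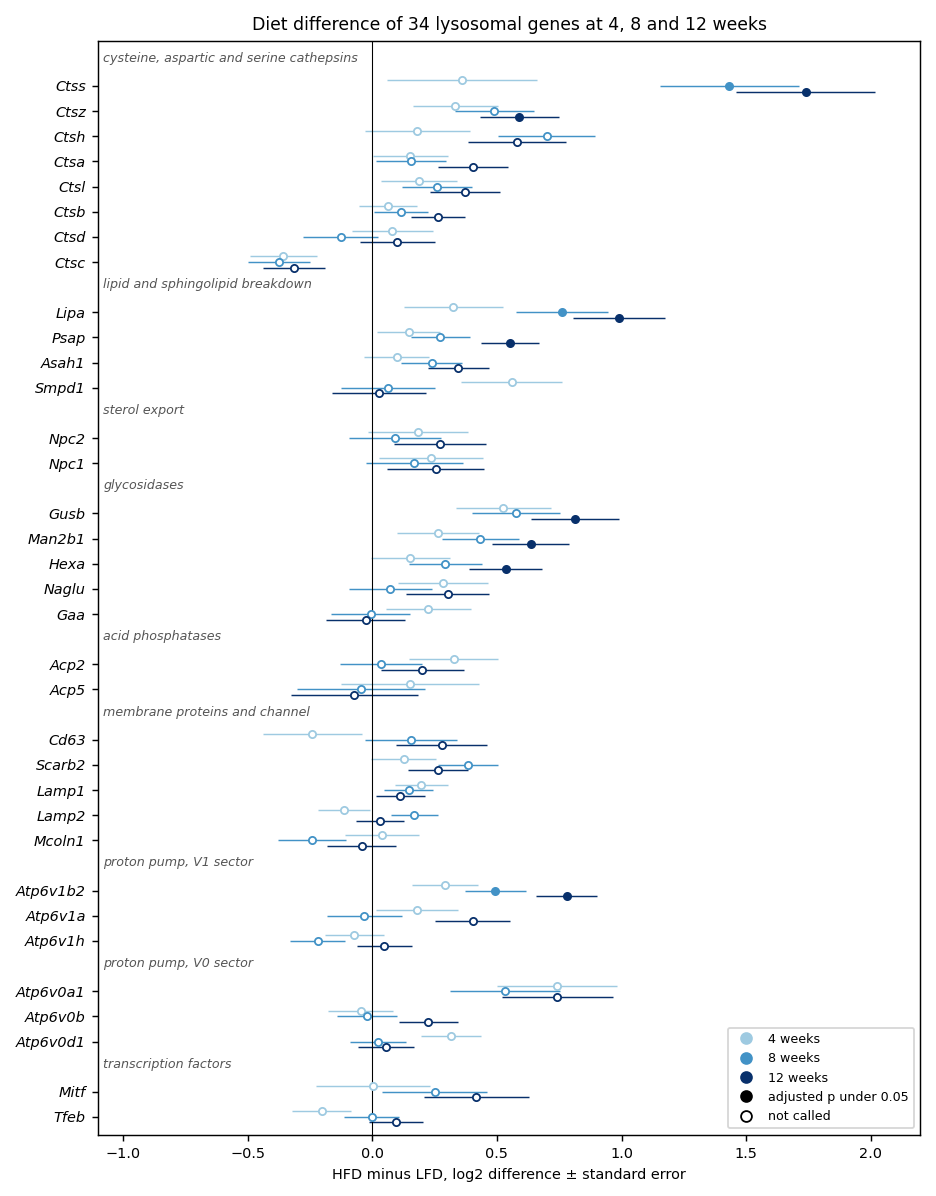
Difference between HFD and LFD on the log2 scale (horizontal axis, ± standard error) for the 34 measured lysosomal genes, grouped by role, at 4, 8 and 12 weeks; filled points passed the test. The filled points lie right of 0, with Ctss farthest at 1.43 (8 weeks) and 1.74 (12 weeks), and Ctsc lies left of 0 at each time.

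The promoters of the listed genes were read from RefSeq (GRCm38.p6), as the 250 bases before and the 50 after each start. The table held 30 of the 36. Ctsb, Ctsh, Asah1, Npc1, Atp6v1b2 and Atp6v1h were not in it. Both strands were searched for the E-box CACGTG, for TCACGTG and for TCACGTGA, each of which contains the one before it. These letters are the inner part of the site described for TFEB. TCACGTG stood in 10 of the 30 promoters (33.3%), those of Ctsa, Ctsd, Glb1, Naglu, Gaa, Lamp1, Mcoln1, Atp6v1a, Atp6v0b and Atp6v0d1, and in 4.29% of 27025 genes with a promoter in the table. CACGTG stood in 36.7% of the 30 and in 8.09% of all genes, and TCACGTGA in 16.7% and 1.12%.

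Few genes both held these letters and were called for diet. Of the 11 genes with a promoter that were called in the average over the 3 times, 0 held TCACGTG, while 9 of the 17 that were measured and not called held it, a split that was not tested. The split depends on the threshold of the call. Of these 9, Ctsa and Atp6v1a had all 12HFD arrays above all 12LFD arrays, and the rest overlapped at 12 weeks. Ctsa was called in the average in some of the alternative fits. The called genes Atp6v1b2, Ctsh and Asah1 are among those not in the table. Ctsl was the 1 called gene with CACGTG. The E-box stretches of genes without a call are shown first, written 5′ to 3′ on the gene's strand with CACGTG in capitals. They come from Lamp1, a glycoprotein of the limiting membrane (chr8:13159091-13159160, plus strand), Mcoln1, a calcium channel (chr8:3500439-3500488, plus), Atp6v0b, a pump subunit (chr4:117887335-117887374, minus), and Ctsd, an aspartic protease (chr7:142387908-142387937, minus).
Lamp1: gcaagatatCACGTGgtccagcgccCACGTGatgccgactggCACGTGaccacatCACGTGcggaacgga
Mcoln1: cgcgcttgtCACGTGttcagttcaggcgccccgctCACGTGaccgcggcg
Atp6v0b: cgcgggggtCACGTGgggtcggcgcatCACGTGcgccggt
Ctsd: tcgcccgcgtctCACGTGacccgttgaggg
In the stretches shown, Lamp1 had 4 such E-boxes within 70 bases of its start, Mcoln1 and Atp6v0b had 2 each, and Ctsd had 1.

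The letters GAGGAAGT, a core that PU.1, a transcription factor of macrophages, is known to bind, were added to the search after the data had been seen. They stood in 3 of the 30 promoters, those of Ctss, Gusb and Ctsc, against 3.69% of all genes. All 3 genes were called in the average over the 3 times, Ctss and Gusb as higher and Ctsc as lower. The letters were chosen with these calls known, and the overlap was not tested. In Ctss (chr3:95526766-95526795, plus strand) the match overlaps the start, and in Ctsc (chr7:88277922-88277951, plus) it lies upstream. Capitals mark the match, which is on the opposite strand in both.
Ctss: aaaccgaaatgaaagttcACTTCCTCattg
Ctsc: tgtcactaactaACTTCCTCaggccacctc
The 80 bases before the start of Lipa (chr19:34527475-34527554, minus) are shown as a called gene whose promoter window held neither set of letters.
Lipa: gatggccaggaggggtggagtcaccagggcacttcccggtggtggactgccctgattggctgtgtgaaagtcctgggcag
Letters that match are not shown to be bound, and letters outside these windows were not searched.

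Among the 8 cathepsins, Ctss and Ctsz rose at 12 weeks, and Ctss, Ctsz, Ctsh and Ctsl rose on average over the 3 times, while Ctsc fell. Ctss encodes cathepsin S, a cysteine protease of antigen-presenting cells that trims the invariant chain of MHC class II. At 4 weeks its values were 10.19, 10.06 and 10.49 in 4HFD arrays and 10.39, 10.04, 9.63 and 9.49 in 4LFD arrays. At 8 weeks they were 11.82, 10.57, 10.40 and 10.99 in 8HFD arrays and 9.44, 9.41, 9.43 and 9.77 in 8LFD arrays. At 12 weeks they were 12.21, 10.87, 11.76 and 11.65 in 12HFD arrays, against 9.51, 10.12, 9.90 and 10.00 in 12LFD arrays. The diets overlapped at 4 weeks, where 4LFD array 1 was above 2 of the 3 HFD arrays, and were apart at 8 and 12 weeks. The difference at 4 weeks was 0.36 ± 0.30 (adjusted p = 0.765). Ctss rose by 1.43 ± 0.28 at 8 weeks (2.70-fold, adjusted p = 0.00834) and by 1.74 ± 0.28 at 12 weeks (3.34-fold, adjusted p = 0.00107).

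Ctsz, a carboxypeptidase, had 11.25, 10.91, 11.19 and 11.09 in 12HFD arrays, against 10.43, 10.48, 10.52 and 10.65 in 12LFD arrays. It rose by 0.59 ± 0.16 (adjusted p = 0.0332), and the call held in 2 of the 8 fits that left out 1 array, with adjusted p up to 0.105. Ctsh, an aminopeptidase, had 9.14, 8.38, 8.64 and 8.87 in 12HFD arrays and 8.36, 8.33, 7.91 and 8.11 in 12LFD arrays. The Ctsh groups were apart by 0.02 at their nearest arrays. Ctsh differed by 0.70 ± 0.20 at 8 weeks (adjusted p = 0.0606) and by 0.58 ± 0.20 at 12 weeks (adjusted p = 0.105), and it rose by 0.49 ± 0.12 on average over the 3 times (adjusted p = 0.00755). Apart from fits that left out 1 array, Ctsh was called in 7 of 12 alternative fits at 8 weeks and 4 of 12 at 12 weeks. Ctsl, an endopeptidase, had 11.46, 10.75, 10.97 and 10.96 in 12HFD arrays and 10.74, 10.67, 10.61 and 10.63 in 12LFD arrays. Its rise of 0.27 ± 0.08 on average (adjusted p = 0.038) was kept in 9 of 23 fits that left out 1 array, and array 1 was the highest HFD array at both 8 and 12 weeks.

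Ctsc went the other way. It encodes dipeptidyl peptidase 1, which activates the granule serine proteases of neutrophils, mast cells and cytotoxic lymphocytes. Its values at 4 weeks were 9.94, 10.03 and 9.97 in 4HFD arrays and 10.37, 10.24, 10.41 and 10.33 in 4LFD arrays. At 8 weeks they were 10.08, 10.03, 10.19 and 10.27 in 8HFD arrays and 10.54, 10.45, 10.65 and 10.43 in 8LFD arrays. At 12 weeks they were 9.97, 10.03, 10.25 and 10.32 in 12HFD arrays and 10.55, 10.36, 10.49 and 10.43 in 12LFD arrays. Every HFD array was below every LFD array of its time. The difference was -0.36 ± 0.14, -0.38 ± 0.13 and -0.32 ± 0.13 at 4, 8 and 12 weeks, with adjusted p between 0.131 and 0.39, and Ctsc fell by 0.35 on average over the 3 times (± 0.07, adjusted p = 0.00314). That call held in all 23 fits that left out 1 array. The array mean of 8 neutrophil and mast cell markers was 4.93 to 5.08 in 4HFD arrays and 5.05 to 5.33 in 4LFD arrays. It was 4.93 to 5.23 in 8HFD arrays and 4.86 to 5.17 in 8LFD arrays, and 4.84 to 5.22 in 12HFD arrays and 4.88 to 5.14 in 12LFD arrays. On average over the 3 times 0 of the 8 markers rose and 1 fell, Cpa3, a mast cell carboxypeptidase, by 0.59 (± 0.15, adjusted p = 0.0107). The part of these markers in the Ctsc difference was not tested.

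In the fit to all arrays, Ctsb, Ctsd and Ctsa were not called between HFD and LFD at any time or on average over the times. Ctsd had 12.62, 12.27, 12.58 and 12.17 in 12HFD arrays and 12.43, 12.39, 12.18 and 12.24 in 12LFD arrays. Its groups overlapped, and the difference of 0.10 had a 95% interval of -0.21 to 0.41. Ctsb and Ctsa, a protective protein of lysosomal galactosidase and neuraminidase, differed by 0.27 ± 0.11 and 0.41 ± 0.14 at 12 weeks with all HFD arrays above all LFD arrays (adjusted p = 0.206 and 0.118). Ctsa was called on average over the times in 3 of the 23 fits that left out 1 array.

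**Figure D2:**
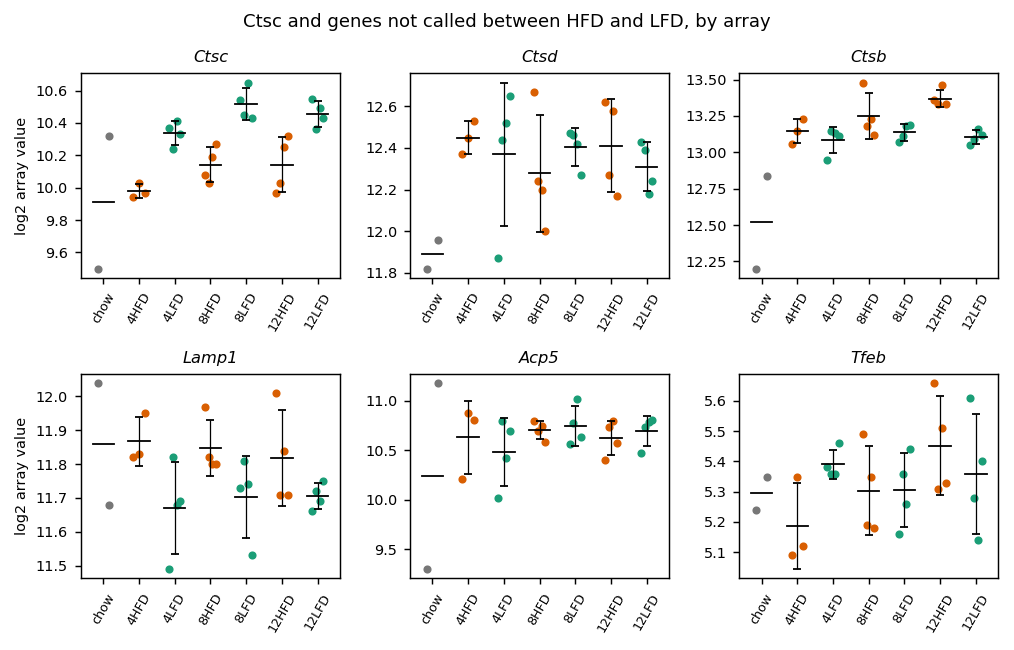
Array values on the log2 scale of Ctsc and of 5 genes that were not called between HFD and LFD in the fit to all arrays (Ctsd, Ctsb, Lamp1, Acp5 and Tfeb) by group; points are arrays, lines are means and bars are SD where a group has 3 or more arrays. Ctsc is lower in each HFD group than in the LFD group beside it (10.14 against 10.46 at 12 weeks), and Acp5 and Tfeb overlap between diets at 8 and 12 weeks.

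Among the genes of lipid breakdown, Lipa and Psap rose at 12 weeks. Lipa encodes lysosomal acid lipase, which frees cholesterol and fatty acids from esters taken up by the cell. Its values at 4 weeks were 10.24, 10.28 and 10.40 in 4HFD arrays and 9.76, 10.11, 10.11 and 9.95 in 4LFD arrays. At 8 weeks they were 11.72, 10.87, 10.81 and 10.90 in 8HFD arrays and 10.47, 10.34, 10.21 and 10.24 in 8LFD arrays. At 12 weeks they were 11.59, 11.04, 11.77 and 11.43 in 12HFD arrays, against 10.52, 10.55, 10.27 and 10.53 in 12LFD arrays. The diets were apart at each of the 3 times, and the lowest HFD array was 0.13, 0.34 and 0.49 above the highest LFD array at 4, 8 and 12 weeks. The 4-week difference of 0.32 ± 0.20 was not called (adjusted p = 0.662). Lipa rose by 0.76 ± 0.18 at 8 weeks (1.69-fold, adjusted p = 0.0308) and by 0.99 ± 0.18 at 12 weeks (1.99-fold, adjusted p = 0.00264). The 8-week call was lost when 8HFD array 1, or any 1 of the 4 LFD arrays, was left out, with differences from 0.55 to 0.85 over the fits that left out 1 array.

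Psap, the precursor of the saposins that present sphingolipids to their hydrolases, had 12.34, 12.04, 12.34 and 12.02 in 12HFD arrays and 11.59, 11.58, 11.72 and 11.64 in 12LFD arrays. The groups did not overlap, and Psap rose by 0.55 ± 0.12 (1.47-fold, adjusted p = 0.00708). Asah1, acid ceramidase, had 9.68, 9.22, 9.41 and 9.13 in 12HFD arrays and 8.97, 8.87, 9.28 and 8.94 in 12LFD arrays. Its 12-week groups overlapped at 1 LFD array, and the difference was 0.35 ± 0.12 (adjusted p = 0.123). The rise of Asah1 on average, 0.23 ± 0.07 (adjusted p = 0.0454), held in 5 of 23 fits that left out 1 array. Smpd1, acid sphingomyelinase, differed by 0.56 ± 0.20 at 4 weeks (adjusted p = 0.358), where 4LFD array 1 was at 8.17 and the other 4LFD arrays at 9.11 to 9.43. At 12 weeks Smpd1 differed by 0.03, with a 95% interval of -0.36 to 0.42.

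Npc1 and Npc2 pass the cholesterol freed by acid lipase out of the lysosome, and neither was called. Npc2 had 11.93, 11.44, 11.70 and 11.41 in 12HFD arrays and 11.50, 11.47, 11.17 and 11.26 in 12LFD arrays. Npc1 had 8.63, 8.65, 9.03 and 8.86 in 12HFD arrays and 8.55, 8.68, 8.43 and 8.49 in 12LFD arrays. In both genes the diets overlapped, with differences of 0.27 ± 0.19 for Npc2 (adjusted p = 0.535) and 0.26 ± 0.19 for Npc1 (adjusted p = 0.594). Whether the difference of Lipa exceeds those of Npc1 and Npc2 was not tested.

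Of the 5 measured glycosidases, Gusb, Man2b1 and Hexa rose at 12 weeks and Naglu and Gaa were not called. Gusb, beta-glucuronidase, had at 4 weeks 8.84, 8.68 and 9.25 in 4HFD arrays and 7.94, 8.68, 8.40 and 8.57 in 4LFD arrays. At 8 weeks it had 9.83, 9.04, 9.08 and 9.24 in 8HFD arrays and 8.72, 8.85, 8.59 and 8.72 in 8LFD arrays. At 12 weeks it had 9.83, 9.31, 9.83 and 9.64 in 12HFD arrays, against 8.68, 8.86, 8.86 and 8.95 in 12LFD arrays. The diets met at a value of 8.68 at 4 weeks and were apart at 8 and 12 weeks. Differences of 0.53 ± 0.19 at 4 weeks and 0.58 ± 0.18 at 8 weeks were not called (adjusted p = 0.354 and 0.0892), and Gusb rose by 0.82 ± 0.18 at 12 weeks (1.76-fold, adjusted p = 0.00807).

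Man2b1, lysosomal alpha-mannosidase, had 9.41, 9.42, 9.84 and 9.28 in 12HFD arrays and 8.75, 8.82, 8.80 and 9.04 in 12LFD arrays. The groups were apart, and Man2b1 rose by 0.64 ± 0.15 (1.55-fold, adjusted p = 0.0179), a call lost without 12HFD array 3 or without 12LFD array 1. Hexa, the alpha chain of beta-hexosaminidase, had 10.76, 10.24, 10.63 and 10.43 in 12HFD arrays and 9.88, 10.04, 10.07 and 9.93 in 12LFD arrays. Hexa rose by 0.54 ± 0.15 (1.45-fold, adjusted p = 0.0352) with groups that did not overlap, and the call held in 2 of the 8 fits that left out 1 array. Naglu, which removes N-acetylglucosamine from heparan sulfate, differed by 0.30 ± 0.17 at 12 weeks (adjusted p = 0.398). Gaa, the alpha-glucosidase that degrades glycogen, differed by -0.03, with a 95% interval of -0.36 to 0.30.

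**Figure D3:**
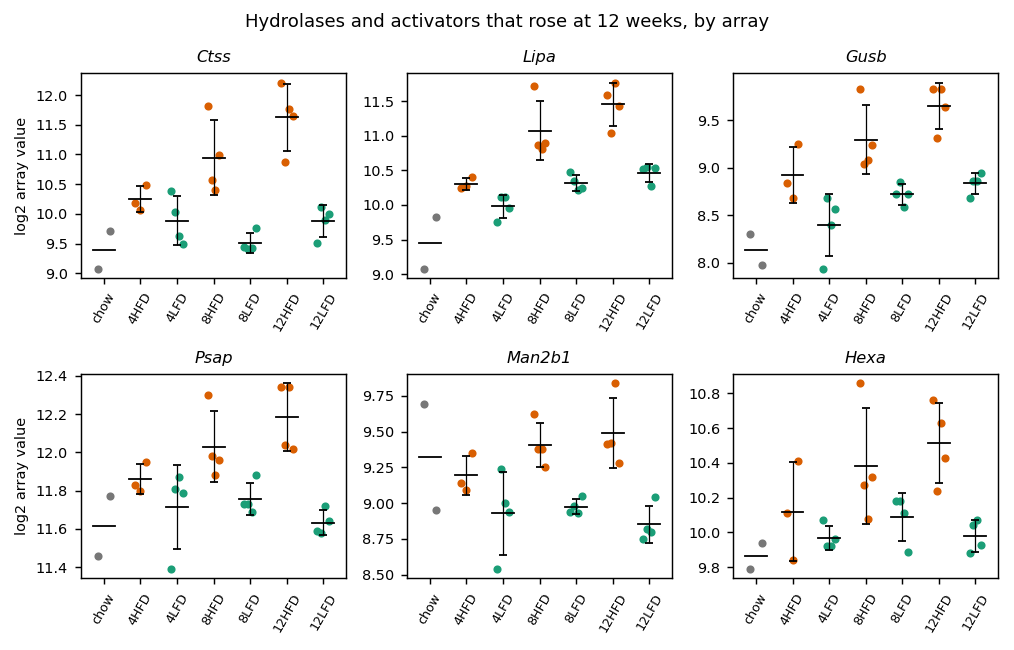
Array values on the log2 scale of 6 genes that rose at 12 weeks (Ctss, Lipa, Gusb, Psap, Man2b1 and Hexa) by group, with HFD in orange, LFD in green and chow in grey; points are arrays, lines are means and bars are SD where a group has 3 or more arrays. In all 6 panels the 4 arrays of 12HFD lie above the 4 arrays of 12LFD, and 8HFD array 1 is the highest array of its group.

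Neither acid phosphatase was called. Acp5, the tartrate-resistant phosphatase known from osteoclasts and macrophages, had 10.40, 10.73, 10.79 and 10.57 in 12HFD arrays and 10.47, 10.73, 10.78 and 10.80 in 12LFD arrays. These values overlapped throughout, and the difference of -0.07 had a 95% interval of -0.60 to 0.46. Acp2 differed by 0.20 ± 0.17 (adjusted p = 0.637).

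In the fit to all arrays, 0 of the 5 membrane proteins were called at a single time in limma, and Scarb2 was the 1 with an unadjusted p under 0.05, at 8 and 12 weeks. Scarb2 was called at 8 weeks without the 3 arrays that carry epididymis markers (adjusted p = 0.0345) and with array weights (adjusted p = 0.0209). Lamp1 had 12.01, 11.71, 11.84 and 11.71 in 12HFD arrays and 11.66, 11.72, 11.69 and 11.75 in 12LFD arrays, with overlap and a difference of 0.11 (95% interval -0.09 to 0.32). Lamp2, the second abundant membrane glycoprotein, differed by 0.03 (95% interval -0.17 to 0.23). Scarb2, the receptor that carries beta-glucocerebrosidase to the lysosome, had 9.74, 9.78, 9.98 and 9.91 in 8HFD arrays and 9.55, 9.38, 9.41 and 9.53 in 8LFD arrays, and 9.98, 9.64, 9.91 and 9.63 in 12HFD arrays and 9.64, 9.46, 9.40 and 9.61 in 12LFD arrays. Its groups were apart at 8 weeks and overlapped at 12 weeks. Scarb2 was the only one of the 5 to rise on average over the 3 times, by 0.26 ± 0.07 (adjusted p = 0.0206). Cd63, a tetraspanin of late endosomes, differed by 0.28 ± 0.18 at 12 weeks (adjusted p = 0.518), and Mcoln1 by -0.04 ± 0.14 (adjusted p = 0.941).

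Within the proton pump, Atp6v1b2 and Atp6v0a1 differed between the diets and the other 4 measured subunits were not called. Atp6v1b2 encodes the B2 subunit of the V1 sector, the B isoform of most tissues, which forms the ATP-splitting ring with the A subunit. Its values at 4 weeks were 10.18, 9.90 and 10.20 in 4HFD arrays and 9.60, 9.81, 9.92 and 9.88 in 4LFD arrays. At 8 weeks they were 10.77, 10.33, 10.11 and 10.29 in 8HFD arrays and 9.91, 9.90, 9.88 and 9.84 in 8LFD arrays. At 12 weeks they were 10.66, 10.39, 10.61 and 10.62 in 12HFD arrays, against 9.63, 9.76, 9.92 and 9.85 in 12LFD arrays. The diets overlapped at 1 array of each diet at 4 weeks and were apart at 8 and 12 weeks. Atp6v1b2 rose by 0.49 ± 0.12 at 8 weeks (1.41-fold, adjusted p = 0.0354) and by 0.78 ± 0.12 at 12 weeks (1.72-fold, adjusted p = 0.000942), the smallest p of the 34 genes there. Its 4-week difference was 0.29 ± 0.13 (adjusted p = 0.504). The 8-week call held in 1 of 8 fits that left out 1 array, and all 8 kept it at 12 weeks. With the mean of the gene's 2 clusters the 8-week call was lost. At 12 weeks the alternatives kept the call, with differences down to 0.59.

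Atp6v0a1, a form of the large V0 subunit, had at 4 weeks 10.50, 10.37 and 10.50 in 4HFD arrays and 8.84, 10.14, 9.93 and 9.95 in 4LFD arrays. At 8 weeks it had 11.03, 10.28, 10.40 and 10.19 in 8HFD arrays and 9.80, 9.72, 9.90 and 10.35 in 8LFD arrays. At 12 weeks it had 10.88, 10.75, 10.85 and 10.78 in 12HFD arrays and 9.92, 9.89, 10.28 and 10.20 in 12LFD arrays. The diets were apart at 4 and 12 weeks, and at 8 weeks 8LFD array 4 lay above 2 HFD arrays. Differences of 0.74 ± 0.24, 0.53 ± 0.22 and 0.74 ± 0.22 at 4, 8 and 12 weeks were not called (adjusted p = 0.288, 0.262 and 0.0597), and the first was 0.45 without 4LFD array 1. Apart from fits that left out 1 array, Atp6v0a1 was called in 1 of 12 alternative fits at 8 weeks and 6 of 12 at 12 weeks. Averaged over the times Atp6v0a1 rose by 0.67 ± 0.13 (adjusted p = 0.00146), and by 0.58 to 0.72 in the fits that left out 1 array.

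Atp6v1a, the A subunit that alternates with B2 in the ring, had 9.72, 9.46, 9.67 and 9.54 in 12HFD arrays and 9.15, 9.15, 9.19 and 9.29 in 12LFD arrays. These groups were apart, with a difference of 0.40 ± 0.15 (adjusted p = 0.158), whereas the diets overlapped at 8 weeks, where the difference was -0.03. In a fit of the 12-week groups alone Atp6v1a was called. Atp6v0d1, the common d subunit, had 10.22, 10.23, 10.55 and 10.19 in 12HFD arrays and 10.07, 10.28, 10.31 and 10.31 in 12LFD arrays. It overlapped between the diets and differed by 0.06 (95% interval -0.18 to 0.29). Atp6v1h and Atp6v0b differed by 0.05 and 0.23 at 12 weeks (adjusted p = 0.908 and 0.378).

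Among 18 further subunit genes of the pump, 1 rose at 12 weeks and the median difference was -0.02. That gene was Atp6v0d2, the alternative d subunit of osteoclasts and macrophages, with 10.18, 8.27, 9.51 and 9.10 in 12HFD arrays and 5.50, 6.20, 5.85 and 6.71 in 12LFD arrays. Its groups were far apart, and it rose by 3.20 ± 0.66 (9.19-fold, adjusted p = 0.00589). Chow array 1, the array with the highest epididymis markers, had an Atp6v0d2 value of 9.12, against 5.20 in chow array 2. Tcirg1, the large V0 subunit of osteoclasts, differed by 0.65 ± 0.22 at 12 weeks (adjusted p = 0.108), with all HFD arrays above all LFD arrays.

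**Figure D4:**
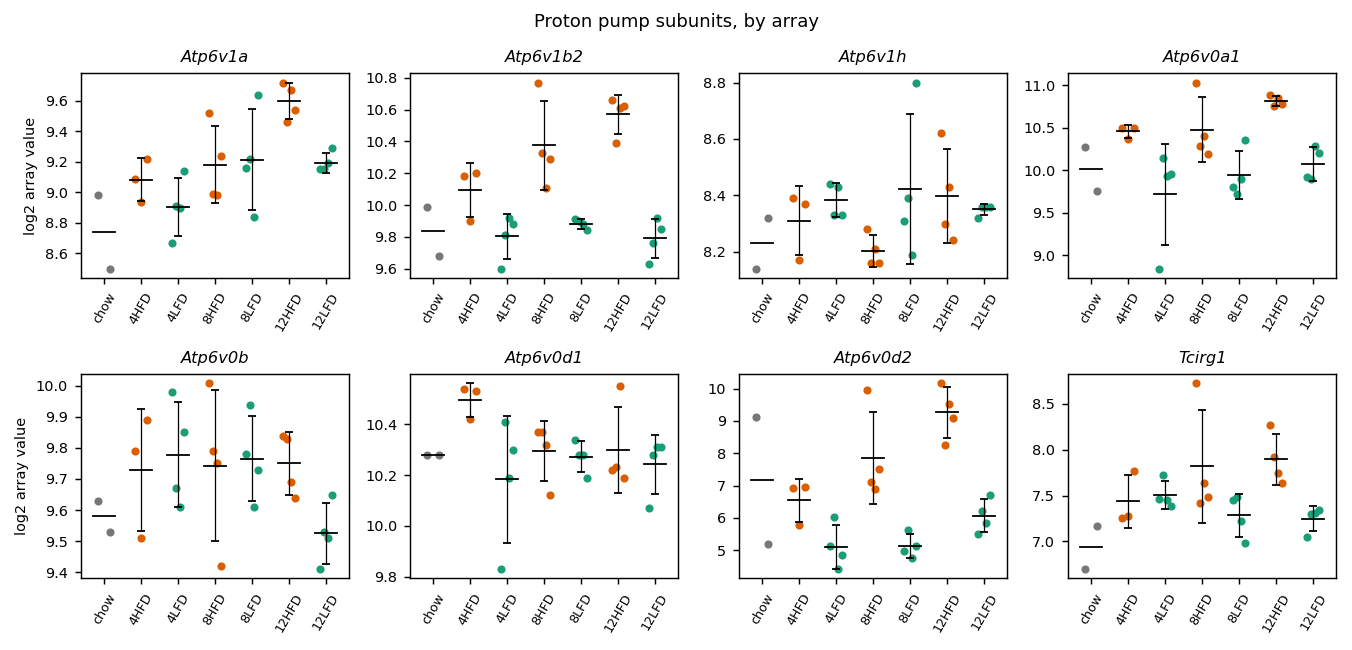
Array values on the log2 scale of the 6 measured pump subunits among the 34 genes and of Atp6v0d2 and Tcirg1, by group; points are arrays, lines are means and bars are SD where a group has 3 or more arrays. Atp6v1b2, Atp6v0a1 and Atp6v0d2 are higher in 12HFD than in 12LFD in every array (means of 10.57 and 9.79 for Atp6v1b2), and Atp6v1h and Atp6v0d1 overlap at 8 and 12 weeks.

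The transcription factors were not called. Tfeb had 5.66, 5.31, 5.51 and 5.33 in 12HFD arrays and 5.61, 5.28, 5.14 and 5.40 in 12LFD arrays. Its values in all groups lay near the array medians, and the 12-week difference of 0.10 had a 95% interval of -0.13 to 0.32. Mitf had 7.60, 7.40, 8.11 and 7.62 in 12HFD arrays and 7.08, 7.10, 7.53 and 7.35 in 12LFD arrays. In Mitf 1 LFD array lay within the HFD range, and the difference was 0.42 ± 0.21 (95% interval -0.02 to 0.86, adjusted p = 0.343). Their RNA levels do not measure their entry into the nucleus, by which both are known to be controlled.

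The wider lysosome was covered by 109 further genes, of which 102 were measured. At 4 weeks 0 of them were called, at 8 weeks 6 rose and 1 fell, and at 12 weeks 12 rose and 1 fell, with a median difference of 0.10. The values that follow are 12-week differences. Among the other proteases, 3 of 11 rose: Ctsk, the collagen-degrading cathepsin K (1.81 ± 0.31), Lgmn, an asparaginyl endopeptidase that processes cathepsins (1.10 ± 0.18), and Prcp (0.96 ± 0.17). Of the other glycan and sulfate ester hydrolases 1 of 16 rose, Gla, alpha-galactosidase A (1.02 ± 0.20). Of the other lipid hydrolases 2 of 9 rose, Galc, galactosylceramidase (0.70 ± 0.16), and Pld3 (1.05 ± 0.28). Of 21 other membrane proteins 4 rose: Gpnmb (3.14 ± 0.55), Cd68 (1.78 ± 0.30), Laptm5 (1.23 ± 0.19) and the calcium channel Tpcn2 (1.05 ± 0.17). Grn, progranulin, was the 1 of 11 genes of enzyme delivery to rise (0.52 ± 0.13). Among 16 regulators Ppargc1a, a coactivator of mitochondrial genes, fell by 0.76 (± 0.18, adjusted p = 0.0152). The adjusted p of the 12 that rose lay between 0.000936 and 0.0299.

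Most macrophage markers that are no lysosome genes were also higher on HFD at 12 weeks. Of 21 such markers, 0 were called at 4 weeks, 6 rose at 8 weeks and 15 rose at 12 weeks, with median differences of 0.30, 0.72 and 0.95. Itgax (2.17 ± 0.33), Tyrobp (1.58 ± 0.26) and Trem2 (2.23 ± 0.37), picked after their values were seen, were among those that rose at 12 weeks. The 12-week difference was above 0 for 19 of the 21, and the lowest was -0.25. On average over the 3 times 16 of the 21 rose and 1 fell. The array mean of the list was 8.24 to 8.54 in 4HFD arrays and 8.03 to 8.36 in 4LFD arrays. It was 8.60 to 9.21 in 8HFD arrays and 8.05 to 8.18 in 8LFD arrays, and 8.69 to 9.16 in 12HFD arrays and 7.81 to 8.16 in 12LFD arrays. The highest of the 8HFD arrays was array 1, which was also the highest of its group for Ctss, Lipa, Ctsz, Gusb and Atp6v1b2. Array 1 was also the highest of its group for Ctsd, Acp5, Gaa, Mcoln1 and Tfeb, which were not called. Among the 34 genes it was highest or level with the highest for all except Ctsc, Smpd1, Naglu, Lamp2 and Scarb2. The share of all genes for which array 1 was highest was not computed. The mean of hepatocyte markers in array 1 was 6.56, against 10.34 to 10.43 in the other 8HFD arrays. The part of the macrophage markers in the lysosomal differences was not tested. Of 13 adipocyte markers 0 rose and 1 fell at 12 weeks, and Adipoq, adiponectin, differed by -0.02 ± 0.16.

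**Figure D5:**
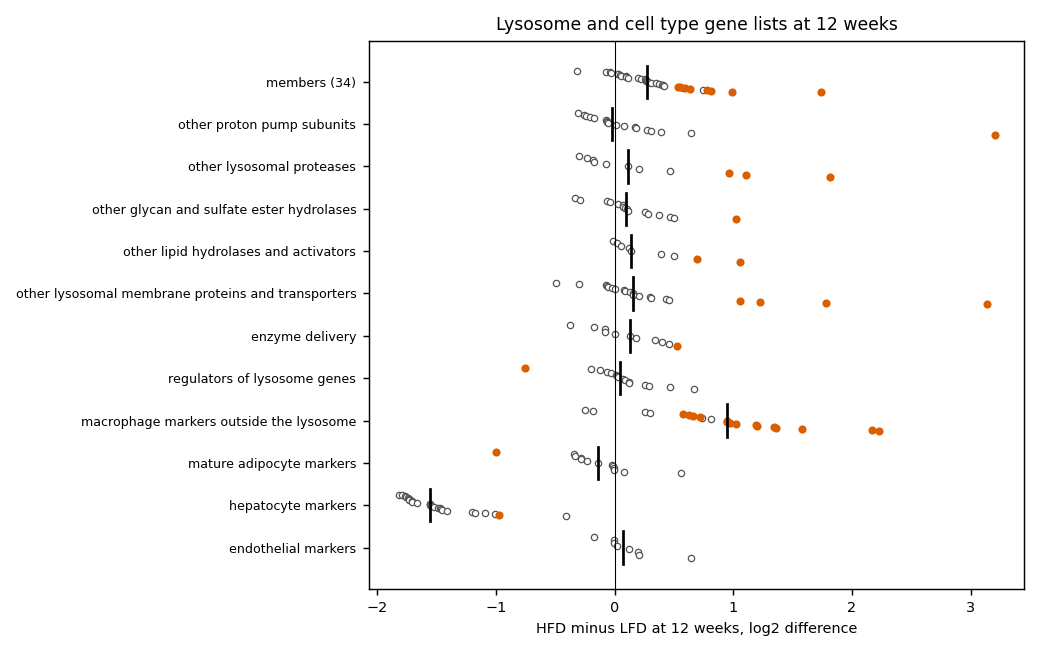
Difference between HFD and LFD at 12 weeks on the log2 scale (horizontal axis) for each gene of the 34 and of other lysosome and cell type lists (rows); filled points passed the test and the black bar is the list's median. The median is 0.27 for the 34 genes, 0.95 for macrophage markers, -0.14 for adipocyte markers and -1.56 for hepatocyte markers.

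Hepatocyte markers had differences between the diets of opposite sign at 8 and 12 weeks (medians of 1.91 and -1.56 over 27 markers), and 0 and 1 of them were called. At 8 weeks the arrays with high hepatocyte markers (3 HFD and 2 LFD) gave HFD minus LFD of 1.23 for Ctss and 0.46 for Lipa, and the arrays with low markers (1 HFD and 2 LFD) gave 2.22 and 1.50. Without 8HFD array 1, the 1 HFD array with low markers, the 8-week difference was 1.14 for Ctss and 0.55 for Lipa. At 12 weeks the arrays with high markers (3 of each diet) gave 1.70 for Ctss, 0.82 for Lipa, 0.76 for Gusb, 0.53 for Psap and 0.81 for Atp6v1b2. The 2 arrays with low markers (1 of each diet) gave 1.86, 1.50, 0.97, 0.62 and 0.69 for the same genes. A fit on the arrays with high markers alone, added after the data had been seen, called 0 of the 34 at 8 weeks and 9 at 12 weeks, against 0.951% and 8.12% of all genes. The difference was above 0 in both sets of arrays for 24 of the 34 at 8 weeks and 25 at 12 weeks. The share of all genes was not computed for these counts. The set with low markers held 1 HFD array at each time, so the counts cannot show that the sets agree.

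Whether the effect of diet differed between times was tested by the interaction of diet and time, and 0 of the 34 and 0% of all genes were called. At an unadjusted p under 0.05 there were 2 of the 34, Ctss and Atp6v1b2, and 5.41% of all genes. Both had an adjusted p of 0.886 in limma.

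Within the high-fat diet, 3 of the 34 rose at 12 weeks against 4 weeks, while 0.573% of all genes were called. Lipa rose by 1.15 ± 0.20 (adjusted p = 0.0144), Ctss by 1.38 ± 0.30 (adjusted p = 0.0392) and Ctsz by 0.76 ± 0.17 (adjusted p = 0.045). In these 3 genes every 12HFD array lay above every 4HFD array. By label the 12HFD mice were 34 weeks old and the 4HFD mice 16 weeks, so age and time on diet cannot be told apart. Hepatocyte markers were also higher in 12HFD than in 4HFD (median difference 2.57), and their part was not tested. The calls rest on few arrays: leaving out 1 array gave 0 to 4 calls, and 1 remained without the 3 arrays that carry epididymis markers (0.428% of all genes were then called). At 8 weeks against 4 weeks 0 of the 34 and 0% of all genes were called, and 5 of the 34 and 8.85% of all genes had an unadjusted p under 0.05 in limma.

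Within the low-fat diet 0 of the 34 were called at 8 weeks or at 12 weeks against 4 weeks, while 0.636% and 0.681% of all genes were. At an unadjusted p under 0.05 in limma there were 4 and 7 of the 34, against 15.5% and 15% of all genes. Ctsz differed by 0.52 ± 0.16 at 8 weeks and by 0.50 ± 0.16 at 12 weeks (adjusted p = 0.116 for both), and Ctss by -0.38 ± 0.28 and -0.01 ± 0.28. The time comparisons of a diet share its 4-week arrays, and the groups compared also differ in age by label.

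Against chow, 3 of the 34 rose in 4HFD (4.18% of all genes were called) and 1 rose in 4LFD (1.55% of all genes), and both comparisons share the 2 chow arrays. Ctsb had 13.06, 13.15 and 13.23 in 4HFD arrays, 12.95, 13.15, 13.13 and 13.11 in 4LFD arrays, and 12.20 and 12.84 in chow arrays. It rose by 0.63 ± 0.14 in 4HFD (adjusted p = 0.0123) and by 0.57 ± 0.13 in 4LFD (adjusted p = 0.0372). Ctsz rose by 0.95 ± 0.20 (adjusted p = 0.0103) and Lipa by 0.85 ± 0.24 (adjusted p = 0.045) in 4HFD, with values of 8.97 and 9.84 for Ctsz and 9.08 and 9.83 for Lipa in chow arrays. The lower value of each pair was that of chow array 1, the array with the highest epididymis markers. Without the 3 arrays that carry these markers 0 of the 34 were called in 4HFD or 4LFD against chow, while 1.19% and 0.284% of all genes were.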

How the data were processed

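Expression was measured on 25 Affymetrix Mouse Gene 2.0 ST arrays. The authors deposited values on a log scale, taken as log2 from their range of 1.73 to 14.13. Per the design text, the arrays were processed with version 4.0.2 of the Transcriptome Analysis Console. Normalization between arrays is not given in the sources used here. Of 34472 transcript clusters, 23521 had 1 gene symbol, which gave 22180 genes with the highest-mean cluster for each. All columns were assigned to a sample. Precision is limited by 2 to 4 arrays a group. Whether replicates came from separate mice is stated only as biological replicate in the labels.

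Group means of the 7 groups were fitted to all arrays with limma 3.58.1 in R 4.3.3 (18 residual degrees of freedom), and differences are given ± the moderated standard error. Genes were called at a Benjamini-Hochberg adjusted p under 0.05 over all genes, with no filter on level. The fit was tested on simulated data for HFD against LFD at 12 weeks, with errors independent between genes. That setting leaves out the shared shifts of hepatocyte and epididymis markers between arrays, and the other comparisons were not simulated. The 36 genes and all other lists were chosen with earlier results of these data known. Array values are given for every lysosomal gene called between the diets and for Lipa, Tfeb, Mitf, Acp5, Npc1, Npc2, Lamp1 and Atp6v0d1, other genes by difference. Of each other lysosome list up to 5 called genes with the smallest p at 12 weeks are named, and Atp6v0d2, Ctsk, Tcirg1, Gpnmb and Adipoq in any case. Apart from Adipoq, genes of the cell type lists are not named by this rule, and some called ones are not named. Array values of Ctsd, Ctsb and Atp6v1a, which stand outside the rule for array values, and the markers Itgax, Tyrobp and Trem2 were chosen after their values were seen. Alternatives were quantile normalization, centring, a filter at a mean of 5, cluster means, moderation with trend, array weights, a replicate block, marker covariates, a hepatocyte block, an added fold limit of 1.5, fits of the compared groups alone and leaving out arrays.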

Additional observations from a re-analysis of the deposited data

Results flagged for a closer look

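Each lysosomal gene was looked at in the 5 groups of 4 arrays for an array far from the other 3, with a gap to its nearest neighbour of more than 0.829 of the group's range, which chance gives in about 1 in 20 groups. Of 170 gene and group pairs, 18 met this.

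In 4LFD, array 1, which carries weak epididymis markers, stood apart for 6 genes. It was low for Psap (11.39), Npc1 (7.21), Naglu (7.32), Acp2 (8.23) and Atp6v0a1 (8.84), and high for Lamp2 (10.75). In 8HFD, array 1, the array of its group with low hepatocyte and high macrophage markers, was high for Lipa (11.72), Ctsz (11.45), Ctsl (11.40) and Lamp1 (11.97). In the same group array 4 was low for Smpd1 (9.02).

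The other 7 were spread over 3 groups. In 8LFD, array 4 was high for Ctss (9.77). In 12HFD, array 3 was high for Naglu (8.66) and Atp6v0d1 (10.55), and array 1 was low for Mcoln1 (8.14). In 12LFD, array 1 was low for Atp6v1h (8.32) and Atp6v0d1 (10.07), and array 3 was low for Lipa (10.27). For Atp6v1h the other 3 arrays shared a value of 8.36, so the gap is a small one. No cause was tested for these values.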

How the results depend on the processing

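At 12 weeks the count of called genes among the 34 was 8, and it stayed within 1.5 times that under the alternatives other than leaving out arrays. Of all genes 764 passed with an adjusted p and the added fold and 1787 with array weights, against 989 called. The counts moved as follows. At 8 weeks (3 called) they were 1 after centring on array medians, 9 with array weights and 8 with marker covariates. They were 9 without the 3 epididymis arrays and 0 on the arrays of high hepatocyte markers. Of all genes 313, 1267, 987, 1251 and 211 were called in these 8-week fits, in that order, against 533. On average over the 3 times (14 called) there were 4 with a fold of at least 1.5, by adjusted or unadjusted p. Of all genes 596 and 623 passed these, against 2322 called. With an unadjusted p and that fold there were 1 at 4 weeks, 3 for HFD at 8 against 4 weeks, 6 for HFD at 12 against 4 weeks and 6 for 4HFD against chow. Of all genes 505, 614, 650 and 2204 passed in these comparisons. For HFD at 12 against 4 weeks (3 called) there were 6 with covariates, 1 without the epididymis arrays and 0 in a fit of those groups alone. The calls among all genes were 331, 95 and 5, against 127. LFD gave 1 at 8 and 1 at 12 weeks with array weights, with 465 and 1335 of all genes called. 4HFD against chow (3 called) gave 0 with array weights and in the groups alone, with 32 and 0 of all genes called, against 927. 4LFD against chow (1 called) gave 0 under these 2, under quantile normalization, centring, covariates and the added fold. Of all genes 0 to 389 passed under them, against 343. The calls against chow were also not kept without the epididymis arrays, a fit that leaves 1 chow array. Leaving out 1 array gave 1 to 3 at 8 weeks (1 without 8HFD array 1 or any 1 LFD array) and 5 to 8 at 12 weeks (5 without 12HFD array 3 or 12LFD array 1). It gave 10 to 15 on average and 0 to 4 for HFD at 12 against 4 weeks. Of all genes, 164 to 438, 558 to 944, 1793 to 2527 and 4 to 175 were called in these fits, in that order. Against chow it gave 0 to 2 for 4HFD (275 to 810 of all genes) and 0 to 2 for 4LFD (67 to 697) when both chow arrays were kept. Leaving out a chow array leaves 1, so those counts are not given. Replicate numbers were not taken as pairs. Same-numbered deviations correlated at -0.61 to 0.60, over 0.1 in 5 of 11 pairs. The pairs at 4 and 12 weeks were all above 0 and those at 8 weeks ran from -0.61 to 0.31, so the check cannot exclude pairing. A replicate block gave 4 at 8 weeks, 9 at 12 weeks, 14 on average, 1 for HFD at 12 against 4 weeks and 0 for 4LFD against chow. The calls among all genes were 595, 1089, 2371, 73 and 125, in that order. No called difference changed sign. The causes were not tested.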
